A study of Mus musculus with 4 samples.

Results

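Replication-dependent histone genes were examined in RNA-seq of primary neural stem/progenitor cells (NSCs) from newborn mice. Members were all rows of the expression table whose gene name starts with Hist1h, Hist2h, Hist3h or Hist4, the names of the clustered histone genes in the mouse. There were 28 such rows with 26 names among the 18169 rows of the table. They comprised 6 rows of the linker histone H1, 5 of H2A, 9 of H2B, 4 of H3 and 4 of H4. Hist1h2ao and Hist1h2bq each occupied 2 rows with identical values, and each pair was treated as 1 measurement wherever names are counted.

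The cells came from C57BL/6 mice that were +/+ or Chd5-/-, with 2 samples per genotype and 4 samples in all, and the study asked how loss of Chd5 affects these cells. Chd5 is a chromatin remodeler, and the Chd5-/- genotype is carried by the whole animal and not by the NSCs alone. Each culture was grown in epidermal growth factor and fibroblast growth factor 2 from the tissue around the ventricles of 1 newborn brain. The growth protocol gives postnatal day 1 for all cultures, whereas the age field lists day 1 for +/+ replicate 1, day 2 for +/+ replicate 2, day 3 for Chd5-/- replicate 1 and day 4 for Chd5-/- replicate 2, so that by this field age and genotype cannot be told apart. Chd5 itself had 0.39 and 0.37 TPM in +/+ cells, against 0.06 and 0.04 TPM in Chd5-/- cells. TPM is a level per transcript length that adds to the same total in every sample, and it keeps no record of read number, so the depth behind each value is unknown.

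Replication-dependent histone genes supply the bulk of the histone protein that packages newly made DNA, and they are transcribed mainly in S phase. Their mRNAs classically end in a short conserved stem-loop in place of a poly(A) tail. The protein Slbp binds this stem-loop and carries the mRNA through processing, translation and decay. Some of these genes also give polyadenylated transcripts that continue past the stem-loop, and such transcripts are known from cells that leave the cell cycle and differentiate. The libraries here were prepared from polyadenylated RNA, so a histone mRNA with the classical end is captured poorly, and the values describe the polyadenylated share of each gene's output.

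The stem-loop is shown for the 10 names with a mean of at least 1 TPM whose annotated transcript holds it, because it marks where the classical mRNA ends. Each line gives 26 bases of the transcript, 5′ to 3′, from the GENCODE release M21 transcripts of GRCm38. Capitals mark the 16 bases of the stem-loop, made of 6 paired bases on each side of a loop of 4.
Hist1h1c: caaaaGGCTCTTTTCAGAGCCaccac
Hist1h1e: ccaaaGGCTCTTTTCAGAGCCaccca
Hist3h2a: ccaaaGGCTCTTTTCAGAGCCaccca
Hist1h2ac: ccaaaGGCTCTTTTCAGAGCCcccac
Hist1h2be: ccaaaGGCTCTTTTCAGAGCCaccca
Hist1h2bg: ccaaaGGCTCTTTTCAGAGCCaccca
Hist3h2ba: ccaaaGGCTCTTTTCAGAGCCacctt
Hist2h3c1: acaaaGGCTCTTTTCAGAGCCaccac
Hist2h3c2: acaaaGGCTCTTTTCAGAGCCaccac
Hist1h4i: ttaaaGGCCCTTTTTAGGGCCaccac
The stem-loop of Hist1h1c lies at chr13:23739512-23739527 on the plus strand and that of Hist1h4i at chr13:22040966-22040981 on the minus strand. The H1, H2A, H2B and H3 genes in this set shared 1 stem-loop, and Hist1h4i carried another stem and loop.

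The motif searched on the transcript strand was GG, NN, CTT, NNN, AG, NN and CC in unbroken order, in which the NN pairs had to be complementary, and overlaps were not at issue because a gene was counted once. It was found in a transcript of 46 of the 70 genes annotated with these name prefixes, against 33 of 21810 other protein-coding genes (0.151%). Of the 70 genes, 26 were in the table and 44 were not analysed here. An annotated transcript ran 100 or more bases past the stem-loop in 23 genes, of which 16 were in the table and 10 had a mean of at least 1 TPM. The annotated transcript ended within 100 bases of the stem-loop in another 23 genes, of which 3 were in the table and 0 reached 1 TPM. The remaining 24 genes had no match in an annotated transcript, and 7 of these were in the table with 3 above the minimum, namely Hist1h2bc, Hist2h2be and Hist1h2bq. Each gene measured at 1 TPM or more therefore had an annotated transcript that extends beyond the stem-loop, or no match to the motif. Only 10 of the 23 genes of the first kind and 3 of the 24 of the second reached 1 TPM. An annotated transcript without a match may still be incomplete. The annotation may differ from the one the authors used.

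Polyadenylated histone levels were highest in Chd5-/- replicate 2 in all 5 families. The TPM of all members added to 164.59 and 166.66 in the +/+ samples, to 205.58 in Chd5-/- replicate 1 and to 601.49 in Chd5-/- replicate 2. Relative to the +/+ mean this was 1.24-fold in Chd5-/- replicate 1 and 3.63-fold in Chd5-/- replicate 2. The +/+ samples lay close together, Chd5-/- replicate 1 lay a little above them, and Chd5-/- replicate 2 stood apart. Hist1h2bc and Hist1h1c together held between 80.4% and 83.2% of the summed TPM in every sample, and without them the sums were 32.24, 29.68, 34.58 and 111.02 TPM in the same order.

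**Figure D1:**
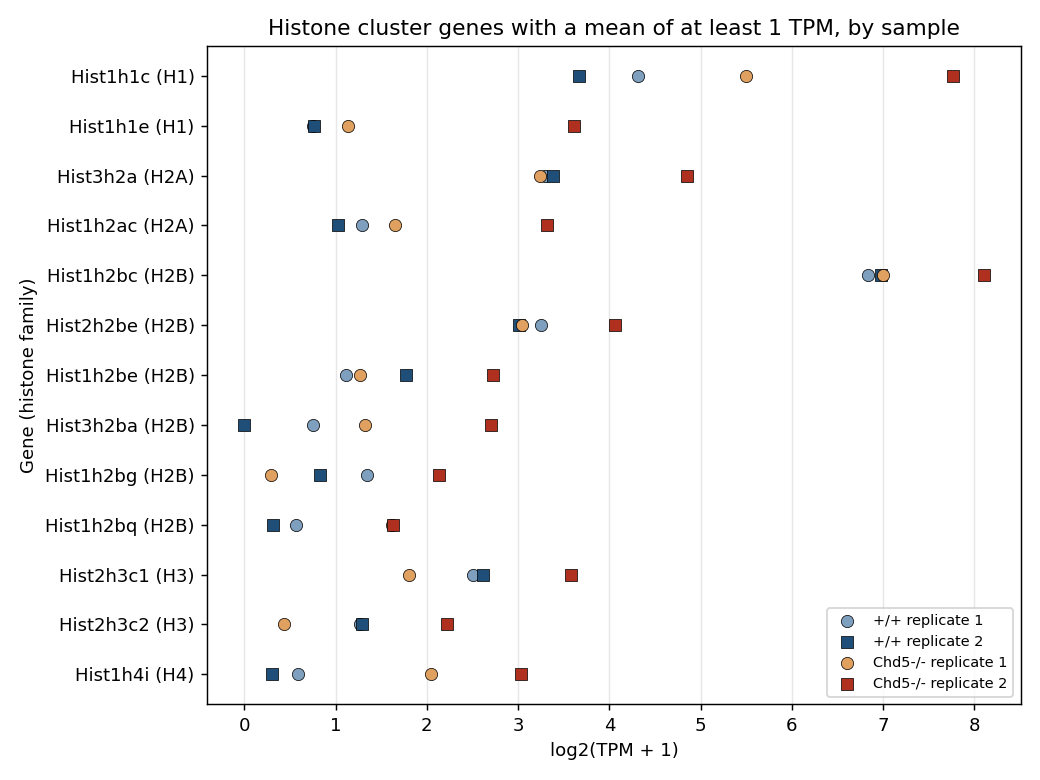
Level of the 13 histone cluster genes with a mean of at least 1 TPM in each of the 4 samples, as log2(TPM + 1) on the horizontal axis, with genes ordered by family and 1 point per sample. Chd5-/- replicate 2 (red squares) is the rightmost point for all 13 genes, while Chd5-/- replicate 1 (orange circles) is the leftmost for 4 of them.

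Linker histones of the H1 family bind the DNA where it enters and leaves the nucleosome and help to compact chromatin. Their summed level was 20.09 and 12.7 TPM in the +/+ samples, 46.07 TPM in Chd5-/- replicate 1 and 229.78 TPM in Chd5-/- replicate 2. Hist1h1c, which encodes a main somatic linker histone and is a single-exon gene at chr13:23738808-23740367, accounted for most of it. Its TPM was 18.82 and 11.75 in the +/+ samples, 44.13 in Chd5-/- replicate 1 and 216.9 in Chd5-/- replicate 2. Both Chd5-/- samples were above both +/+ samples, and the Chd5-/- samples themselves differed 4.92-fold. The difference in log2(TPM + 1) between genotypes was 2.64 ± 0.76 (SE), with an unadjusted p of 0.0166 and an adjusted p of 0.144 by limma. This scale, used for every log2 difference here, understates changes of low genes.

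Hist1h1e, another somatic linker histone gene, was at 0.68 and 0.70 TPM in the +/+ samples, 1.2 in Chd5-/- replicate 1 and 11.19 in Chd5-/- replicate 2. The genotypes did not overlap, yet Chd5-/- replicate 1 lay near the +/+ values and the difference of 1.62 ± 0.83 (SE) on the log2 scale had an unadjusted p of 0.106 by limma. The 3′ part of Hist1h1e overlaps the annotated span of Hist1h2be on the same strand, and 32.0% of its 50-base windows also occur in other genes, so that its reads may be shared. Hist1h1d had a mean below 1 TPM, with 0.39 and 0.10 TPM in the +/+ samples, against 0.57 and 1.69 TPM in the Chd5-/- samples. Hist1h1a and Hist1h1b were at 0.17 TPM or less in every sample. The testis-specific Hist1h1t was at 0.08 TPM in +/+ replicate 1 and listed at 0 elsewhere, and the testis-specific Hist1h2aa and Hist1h2ba were not analysed here.

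H2A and H2B form the dimers that flank the central tetramer of the nucleosome. The H2A family added to 10.45, 10.65 and 10.98 TPM in +/+ replicates 1 and 2 and Chd5-/- replicate 1, and to 37.58 TPM in Chd5-/- replicate 2. Hist3h2a, the most abundant H2A member, was at 8.78 and 9.45 TPM in the +/+ samples, 8.47 in Chd5-/- replicate 1 and 27.79 in Chd5-/- replicate 2. The genotypes overlapped, because Chd5-/- replicate 1 was the lowest of the 4 samples, and 31.5% of its 50-base windows also occur in Trim17. Hist1h2ac was at 1.44 and 1.04 TPM in the +/+ samples, 2.15 in Chd5-/- replicate 1 and 8.97 in Chd5-/- replicate 2, with no overlap and an unadjusted p of 0.0778 by limma. Hist1h2ae had a mean below 1 TPM and rows of Hist1h2ao were above 0 in Chd5-/- replicate 2 alone.

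The H2B family was the most abundant, at 126.85 and 135.96 TPM in the +/+ samples, 141.38 TPM in Chd5-/- replicate 1 and 308.22 TPM in Chd5-/- replicate 2. Hist1h2bc, a gene of 2 exons at chr13:23684199-23692908, supplied 113.53 and 125.23 TPM of this in the +/+ samples, 126.87 in Chd5-/- replicate 1 and 273.57 in Chd5-/- replicate 2. Chd5-/- replicate 1 exceeded +/+ replicate 2 only slightly, and the log2 difference between genotypes of 0.64 ± 0.40 (SE) had an unadjusted p of 0.167 by limma. Of the 50-base windows of Hist1h2bc, 30.1% also occur in other genes, mainly Hist1h2bg. Hist2h2be, the only tested member with no 50-base window in another gene, was at 8.54 and 7.05 TPM in the +/+ samples, 7.25 in Chd5-/- replicate 1 and 15.66 in Chd5-/- replicate 2. Chd5-/- replicate 1 lay between the +/+ samples and Chd5-/- replicate 2 above all of them.

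Of the less abundant H2B genes, Hist3h2ba was at 0.69 TPM and listed at 0 in the +/+ samples, against 1.5 and 5.49 TPM in Chd5-/- replicates 1 and 2. Its log2 difference was 1.63 ± 0.59 (SE), with an unadjusted p of 0.0381 and an adjusted p of 0.186 by limma. Hist1h2bq was the member in which the Chd5-/- samples lay closest together, at 2.07 and 2.10 TPM against 0.48 and 0.24 TPM in the +/+ samples. Its log2 difference was 1.19 ± 0.35 (SE), with an unadjusted p of 0.0187 and an adjusted p of 0.150 by limma. Since 97.3% of its 50-base windows also occur in the annotated gene Hist1h2br, its reads cannot be assigned to 1 gene. Hist1h2be was at 1.16, 2.42, 1.40 and 5.62 TPM and Hist1h2bg at 1.53, 0.78, 0.22 and 3.39 TPM in +/+ replicates 1 and 2 and Chd5-/- replicates 1 and 2. Both genes overlapped between genotypes and were highest in Chd5-/- replicate 2, and Hist1h2bg was lowest in Chd5-/- replicate 1. Of the 50-base windows of Hist1h2bg, 49.7% also occur in other genes, mainly Hist1h2bc. Hist1h2bp was above 0 only in +/+ replicate 1, at 0.44 TPM, and Hist2h2bb only in Chd5-/- replicate 2, at 0.29 TPM.

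**Figure D2:**
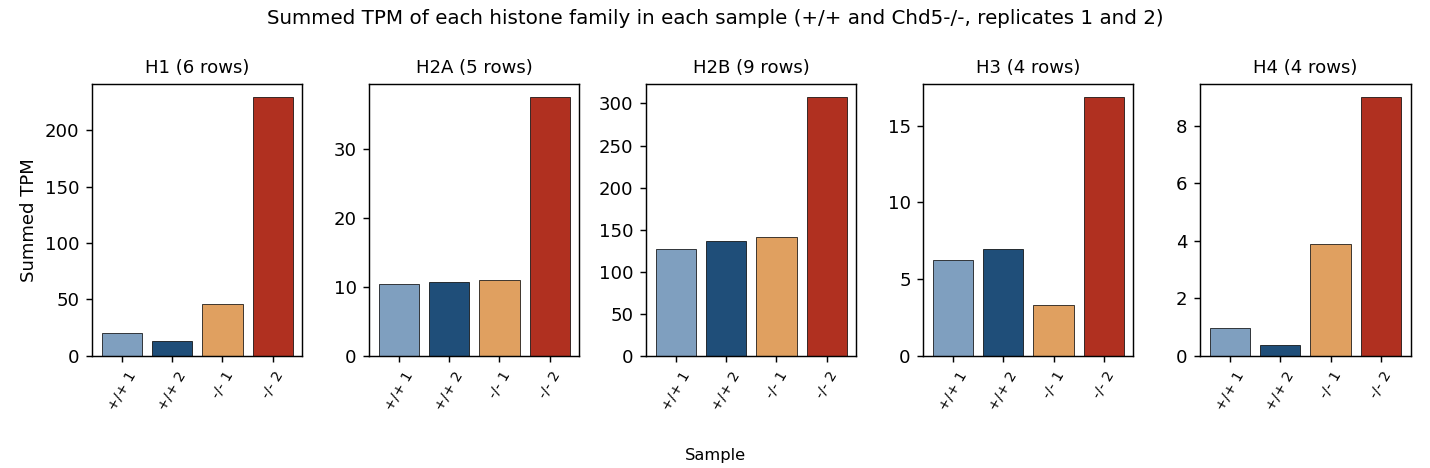
Summed TPM of each histone family in each sample, 1 bar per sample and 1 panel per family, each panel with its own vertical axis from 0. Chd5-/- replicate 2 is the tallest bar in all 5 panels, from 9.01 TPM for H4 to 308.22 TPM for H2B, and in the H3 panel Chd5-/- replicate 1 is the lowest at 3.28 TPM.

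H3 and H4 form the central tetramer of the nucleosome, and H3 was the only family with a lower sum in Chd5-/- replicate 1 than in both +/+ samples. Its sums were 6.25 and 6.97 TPM in the +/+ samples, 3.28 TPM in Chd5-/- replicate 1 and 16.9 TPM in Chd5-/- replicate 2. Hist2h3c1, a replication-dependent H3 gene, was at 4.68 and 5.12 TPM in the +/+ samples, 2.49 in Chd5-/- replicate 1 and 10.96 in Chd5-/- replicate 2. Its neighbour Hist2h3c2 was at 1.41 and 1.45 TPM in the +/+ samples, 0.35 in Chd5-/- replicate 1 and 3.65 in Chd5-/- replicate 2. For both genes the Chd5-/- samples lay on opposite sides of the +/+ samples, and the log2 differences of group means were 0.13 ± 0.62 and 0.04 ± 0.64 (SE). These differences turned negative under median-of-ratios scaling, quantile normalization, rescaling and removal of GC and length trends. Of the 50-base windows, 63.5% of those of Hist2h3c2 and 100% of those of Hist2h3c1 occur in the annotated gene Gm20634, so their separate values are uncertain. Hist1h3d had the highest mean of the members below the minimum, with 0.16 and 0.40 TPM in the +/+ samples, against 0.44 and 1.99 TPM in the Chd5-/- samples, and Hist1h3i was above 0 in Chd5-/- replicate 2 alone.

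The H4 family was the least abundant, at 0.95 and 0.38 TPM in the +/+ samples, 3.87 TPM in Chd5-/- replicate 1 and 9.01 TPM in Chd5-/- replicate 2. Hist1h4i, at chr13:22040636-22041362 on the minus strand, was its only member above the minimum, with 0.50 and 0.23 TPM in the +/+ samples, 3.12 in Chd5-/- replicate 1 and 7.18 in Chd5-/- replicate 2. Both Chd5-/- samples were above both +/+ samples. Its log2 difference of 2.10 ± 0.46 (SE) had the smallest p of the members, 0.00522 unadjusted and 0.120 adjusted by limma. In 28.9% of its 50-base windows the sequence also occurs in other genes, among them Hist1h4n. Hist1h4h was at 0.20 TPM and listed at 0 in the +/+ samples against 0.31 and 0.91 TPM in the Chd5-/- samples, Hist1h4d was above 0 in Chd5-/- replicate 2 alone, and Hist4h4 was at 0.44 TPM or less in every sample.

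The genotype test was limma on log2(TPM + 1) over the 12576 rows whose mean reached 1 TPM, two-sided, with Benjamini-Hochberg adjustment over all of them. Of the 28 member rows, 14 rows with 13 names passed this minimum, and 14 rows with 13 names did not. Among those that passed, Hist1h1e, Hist1h4i, Hist3h2ba and Hist1h2bq had +/+ means of 0.69, 0.365, 0.345 and 0.36 TPM. They passed only through the Chd5-/- samples, so their counts as higher in Chd5-/- are partly set by the minimum. An unadjusted p under 0.05 with higher values in Chd5-/- was found in 5 of the 14 member rows, those of Hist1h1c, Hist1h4i, Hist3h2ba and both rows of Hist1h2bq, against 21.9% of all rows tested. With lower values it was found in 0 of 14 member rows, against 2.27% of all rows. After adjustment 0 member rows passed, against 0.0557% of all rows. The median log2 difference of the 14 rows was 0.99 without +/+ replicate 1 and 0.97 without +/+ replicate 2, against 0.41 and 0.26 for all rows. With Chd5-/- replicate 1 left out all 14 rows had an unadjusted p under 0.05 with higher values (27.8% of all rows, 7.5% lower) and 7 an adjusted one (9.92%). Without Chd5-/- replicate 2 there were 5 higher (25.9%) and 2 lower (5.6%), the latter Hist2h3c2 and Hist1h2bg, and Hist1h4i alone had an adjusted p under 0.05 (0.0343, 8.64% of all rows). With 1 sample left in a group its spread is assumed to equal that of the other group.

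Counted by overlap, both Chd5-/- samples were above both +/+ samples in 8 of the 14 member rows, against 46.3% of all rows tested, and below them in 0, against 13.0%. Among the 8 were all the rows that passed the minimum only through the Chd5-/- samples. The median log2 difference of the 14 rows was 0.95, against 0.34 for all rows. That shift of all rows depended on scaling, and was 0.01 with median-of-ratios scaling, -0.05 with quantile normalization, 0.13 when the 20 most abundant rows were taken out of the total and -0.03 once GC and length trends were subtracted. The member medians were 0.69, 0.62, 0.88 and 0.60 in the same order, with 3, 5, 3 and 3 of 14 rows below 0. An exact permutation test of a single value cannot give a p below 0.333 with 2 samples against 2. The p-values measure only the spread between these cultures.

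In the members the median difference between the Chd5-/- samples (1.53 on the log2 scale) was larger than that between genotypes (0.95). The highest of the 4 samples was Chd5-/- replicate 2 in all 14 member rows above the minimum, against 39.9% of all rows tested. Of these rows, those of Hist1h1e, Hist3h2ba, Hist1h2bg and Hist1h2bq would not reach the minimum without Chd5-/- replicate 2. With no minimum Chd5-/- replicate 2 was the highest in 23 of the 28 member rows, against 37.3% of all rows. It was at least 2-fold above Chd5-/- replicate 1 in 12 of 14 rows, against 10% of all rows, and at least 2-fold above every other sample in 11 of 14, against 5.11%. Chd5-/- replicate 1 was the lowest of the 4 in 4 of 14 rows, Hist3h2a, Hist1h2bg, Hist2h3c1 and Hist2h3c2, against 16.7% of all rows. These counts describe 1 culture, and no test of 1 culture against another was possible.

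**Figure D3:**
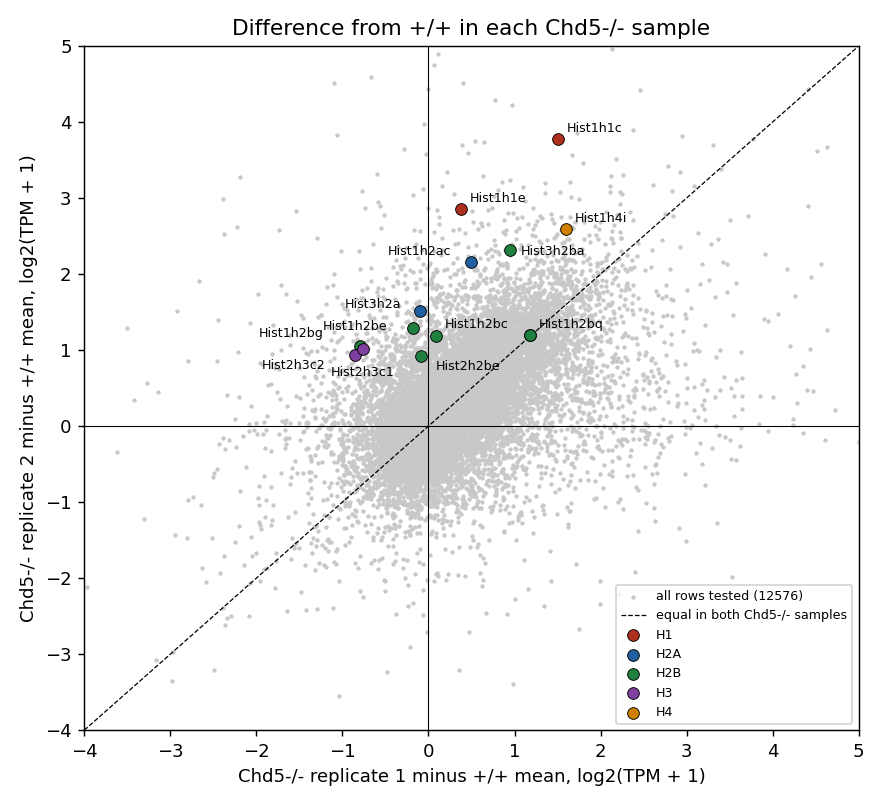
Difference in log2(TPM + 1) from the +/+ mean in Chd5-/- replicate 1 (horizontal) and Chd5-/- replicate 2 (vertical), for the histone cluster genes coloured by family and for all 12576 rows tested in grey, of which 33 lie beyond the axes. Every histone gene lies between 0.93 and 3.78 on the vertical axis and all but Hist1h2bq lie clearly above the dashed line of equal values, whereas on the horizontal axis they run from -0.85 to 1.60.

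The median difference between Chd5-/- replicates 2 and 1 was 1.53 on the log2 scale over the 14 rows (range 0.01 to 2.47), against 0.00 for all rows. The median difference between the +/+ replicates was 0.25, against 0.14 for all rows. Chd5-/- replicate 1 differed from the +/+ mean by a median of 0.23, below the 0.33 of all rows, and Chd5-/- replicate 2 by a median of 1.24, against 0.35. The highest sample was still Chd5-/- replicate 2 in 14 of 14 member rows under median-of-ratios scaling, quantile normalization and rescaling (30.3%, 29.9% and 35.2% of all rows), and in 13 of 14 after removal of GC and length trends (32.3%).

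The excess in Chd5-/- replicate 2 extended to 3 chromosomes. On chromosome 13, the 13 members that start between positions 23531050 and 23763666 added to 138.22, 142.73, 177.82 and 525.38 TPM in +/+ replicates 1 and 2 and Chd5-/- replicates 1 and 2. The 8 rows that start between 21779883 and 22040636 added to 2.02, 0.71, 7.26 and 11.96 TPM, and there both Chd5-/- samples were well above both +/+ samples. Most of this sum came from Hist1h4i and Hist1h2bq, and it counts both identical rows of Hist1h2bq. The 4 Hist2 genes on chromosome 3 added to 14.63, 13.62, 10.09 and 30.56 TPM, and the Hist3 pair on chromosome 11 to 9.47, 9.45, 9.97 and 33.28 TPM. In both sets Chd5-/- replicate 2 was well above the +/+ samples, while Chd5-/- replicate 1 lay below them in Hist2 and 1.05-fold above their mean in Hist3. Hist4h4, alone on chromosome 6, was at 0.25, 0.15, 0.44 and 0.31 TPM.

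The composition of the histone RNA differed as well. H2B made up 77.1% and 81.6% of the members' TPM in the +/+ samples, 68.8% in Chd5-/- replicate 1 and 51.2% in Chd5-/- replicate 2. H1 made up 12.2% and 7.62% in the +/+ samples, 22.4% in Chd5-/- replicate 1 and 38.2% in Chd5-/- replicate 2. Members annotated with a transcript running 100 or more bases past the stem-loop added to 40.8 and 33.75 TPM in the +/+ samples, 66.84 in Chd5-/- replicate 1 and 306.28 in Chd5-/- replicate 2. Members without a stem-loop match, mostly Hist1h2bc, added to 123.15 and 132.91 TPM in the +/+ samples, 138.43 in Chd5-/- replicate 1 and 294.02 in Chd5-/- replicate 2. Between the Chd5-/- samples the first class differed 4.58-fold and the second 2.12-fold. The first class holds Hist1h1c, at 18.82 and 11.75 TPM in the +/+ samples, 44.13 in Chd5-/- replicate 1 and 216.9 in Chd5-/- replicate 2. Hist1h1c thus made up most of the first class in both Chd5-/- samples, and the classes were not compared without Hist1h1c and Hist1h2bc.

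Histone mRNA is normally coupled to DNA replication, so the genes of S phase and proliferation were read beside it. Of 23 such genes, 1 had an unadjusted p under 0.05 with higher values in Chd5-/- (21.9% of all rows) and 0 with lower ones (2.27%) by limma. The former was Tk1, a thymidine kinase of the nucleotide salvage pathway, at 3.48 and 1.33 TPM in +/+ and 8.17 and 7.6 TPM in Chd5-/- cells. Mcm7, a subunit of the replicative helicase, had the next smallest p (0.0586 unadjusted by limma), at 25.95 and 13.48 TPM in +/+ and 36.72 and 33.27 TPM in Chd5-/- cells. The median log2 difference of the list was 0.38, against 0.34 for all rows. After quantile normalization it was -0.08 (-0.05 for all rows), and after removal of GC and length trends -0.09 (-0.03 for all rows). Over the 23 genes the median log2 difference between Chd5-/- replicates 2 and 1 was -0.49, against 0.00 for all rows. Chd5-/- replicate 2 was the highest sample for 6 of the 23 genes (39.9% of all rows tested) and the lowest for 7 (20.5%). The 6 were Tyms, Ccna2, Cdk1, Ccnb1, Top2a and Mki67, most of which are known for peak expression in the later part of the cycle. Among the 7 were Pcna, Mcm4, Mcm6, Cdc6, Cdt1 and Rrm2, which are known for licensing, replication and nucleotide supply around the start of S phase. Other genes of such roles did not share this place. Mcm2, Mcm3, Mcm5, Mcm7, Cdc45, Gins1, Gins2, Rrm1, Tk1 and E2f1 were neither highest nor lowest in Chd5-/- replicate 2. Of these genes, Rrm1 alone was higher in Chd5-/- replicate 2 than in Chd5-/- replicate 1, and the others were lower. Apart from Pcna, Tk1 and Mcm7, these genes were named after their values were seen. Pcna, the sliding clamp of the replication fork, was at 359.42 and 290.5 TPM in the +/+ samples, 284.23 in Chd5-/- replicate 1 and 191.8 in Chd5-/- replicate 2. Mki67, a general marker of cycling cells, was at 48.23 and 23.46 TPM in the +/+ samples, 42.95 in Chd5-/- replicate 1 and 80.06 in Chd5-/- replicate 2. Whether cell cycle position had a part in the histone values was not tested, and in bulk RNA a change in the number of cells of a kind and a change in the RNA per cell cannot be told apart.

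**Figure D4:**
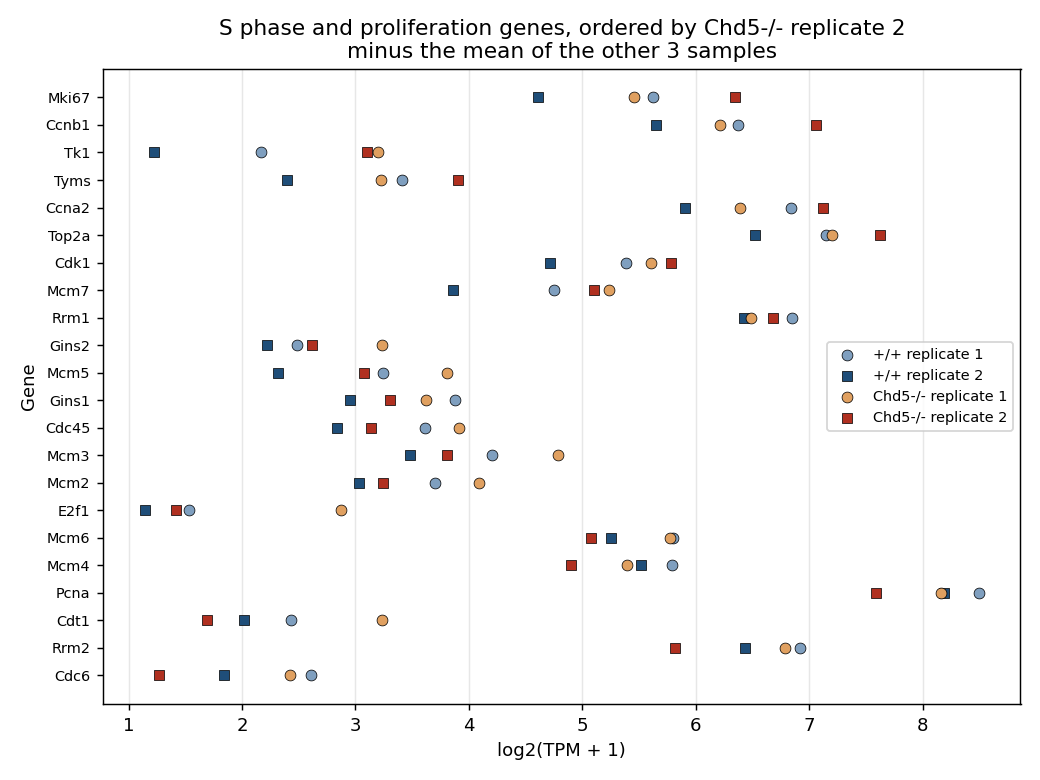
Level of 22 of the S phase and proliferation genes in each sample as log2(TPM + 1), 1 point per sample, ordered from top to bottom by Chd5-/- replicate 2 minus the mean of the other samples. Chd5-/- replicate 2 (red squares) is the rightmost point for 6 genes, mostly at the top, and the leftmost for 6, all near the bottom.

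Genes that act on histone mRNA were read from fixed lists. Of 8 genes of the histone locus body, the nuclear site where histone genes are transcribed, 0 had an unadjusted p under 0.05 in either direction by limma. Among all rows 21.9% were higher and 2.27% lower at that threshold. The median log2 difference of the 8 genes was -0.08. Between Chd5-/- replicates 2 and 1 their median log2 difference was -0.42, against 0.00 for all rows. Npat, the coactivator of histone transcription, was at 26.2 and 26.03 TPM in the +/+ samples, against 22.19 and 23.61 in the Chd5-/- ones. The smallest p of the list was that of Ccne2, a cyclin that activates the kinase acting on Npat, at 20.24 and 17.03 TPM in the +/+ samples, 12.77 in Chd5-/- replicate 1 and 3.35 in Chd5-/- replicate 2 (unadjusted p = 0.0658 by limma). Cdk2, its kinase partner, was at 15.28 and 10.31 TPM in the +/+ samples, against 23.4 and 15.99 TPM in the Chd5-/- samples. Under median-of-ratios scaling and quantile normalization 2 genes of this list had an unadjusted p under 0.05 with lower values by limma. These scalings moved the median of all rows from 0.34 to 0.01 and -0.05, and the share of all rows called lower under them was not counted.

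Of 12 tested genes of histone mRNA 3′ end processing, 3 had an unadjusted p under 0.05 with higher values in Chd5-/- and 0 with lower values, beside the 21.9% and 2.27% of all rows. Lsm10, a subunit of the particle that recognises the cleavage site of histone pre-mRNA, was at 13.35 and 9.27 TPM in the +/+ samples, against 29.84 and 31.14 TPM in the Chd5-/- samples (log2 difference 1.37 ± 0.28 SE, adjusted p = 0.120 by limma). Sympk, the scaffold of the cleavage complex, was at 8.42 and 6.09 TPM in the +/+ samples, against 17.98 and 19.96 TPM in the Chd5-/- samples. In both genes the Chd5-/- samples lay close together, as they did in Hist1h2bq alone of the tested histone genes. Slbp, the stem-loop binding protein, was at 90.39 and 91.07 TPM in the +/+ samples, 86.31 in Chd5-/- replicate 1 and 53.81 in Chd5-/- replicate 2. It was thus lowest in the sample with the highest histone level, and its difference between genotypes had an unadjusted p of 0.218 by limma.

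Of 10 genes of histone mRNA turnover and translation, 3 had an unadjusted p under 0.05 with higher values in Chd5-/- and 0 with lower values by limma, near the 21.9% and 2.27% of all rows. Upf1, the helicase that starts histone mRNA decay, was at 5.53 and 4.43 TPM in the +/+ samples, against 11.3 and 10.41 TPM in the Chd5-/- samples, and the translation factor Mif4gd, a partner of Slbp, was at 14.64 and 14.78 against 23.84 and 33.29 TPM. Of 16 histone chaperone genes 3 were higher at that threshold and 0 lower, also near the shares of all rows, and the smallest p was that of Cabin1 of the complex that deposits H3.3, at 4.41 and 5.08 TPM in the +/+ samples, against 11.18 and 11.73 TPM in the Chd5-/- samples. Daxx, an H3.3 chaperone, was at 4.78 and 4.00 against 9.06 and 10.11 TPM. The medians of the processing, turnover and chaperone lists were 0.23, 0.12 and 0.19, each below the 0.34 of all rows, and each turned negative under median-of-ratios scaling.

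The genes listed as replication-independent histones mostly give mRNAs with poly(A) tails throughout the cycle, though not all of them only such mRNAs. Their median log2 difference was 0.75 over 10 tested genes, and it stayed above 0 under the 4 scaling and trend alternatives (0.12 to 0.54). Of the 10 genes, 2 had an unadjusted p under 0.05 with higher values in Chd5-/- (21.9% of all rows) and 0 with lower values (2.27%) by limma. H1f0, a linker histone of slowly dividing and differentiating cells, was at 62.63 and 48.65 TPM in the +/+ samples, against 118.03 and 195.97 TPM in the Chd5-/- samples (log2 difference 1.45 ± 0.32 SE, adjusted p = 0.121 by limma). H2afx, the variant phosphorylated at DNA breaks, was at 16.4 and 7.83 TPM against 27.79 and 36.89 TPM. Chd5-/- replicate 2 was the highest sample in 8 of the 10 genes, against 39.9% of all rows, and the median log2 difference between the Chd5-/- samples was 0.39. Cluster genes made up 5.55% and 6.11% of the TPM of both kinds of histone gene in the +/+ samples, 6.85% in Chd5-/- replicate 1 and 15.2% in Chd5-/- replicate 2.

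All 4 samples expressed NSC genes, with Nes at 60.88 to 94.66, Sox2 at 200.69 to 441.66 and Vim at 1067.86 to 1502.02 TPM. Their levels differed between samples, with Slc1a3, a glutamate transporter, at 1871.05, 1620.4, 442.25 and 1005.58 TPM in +/+ replicates 1 and 2 and Chd5-/- replicates 1 and 2 (unadjusted p = 0.0244 by limma). Fabp7, a fatty acid binding protein of radial glia, was at 5891.59, 4315.73, 1938.77 and 3822.43 TPM in that order. The transcription factor Pax6 ranged from 12.98 TPM in Chd5-/- replicate 1 to 54.41 in replicate 2, and Egfr, the epidermal growth factor receptor, was at 138.93, 129.19, 147.21 and 324.03 TPM. Microglial, endothelial and mesenchymal markers each added to less than 1 TPM per sample, except for 8.06 TPM of mesenchymal markers in Chd5-/- replicate 1, nearly all of it Col3a1. Only 1 of the 4 microglial genes (Aif1) and 2 of the 3 endothelial genes were in the table. Of 5 oligodendrocyte lineage genes, 4 were highest in Chd5-/- replicate 2, against 39.9% of all rows, and the sum of the list was 561.07 and 626.36 TPM in the +/+ samples, 498.46 in Chd5-/- replicate 1 and 907.58 in Chd5-/- replicate 2. Pdgfra, a receptor of oligodendrocyte precursors, was at 13.02, 1.84, 2.98 and 22.75 TPM in that order, Mbp was at 2.65 TPM or less, and Olig2 was highest in Chd5-/- replicate 1, at 190.31 against 169.68 TPM in replicate 2. The 4 astrocyte genes added to 78.61 and 237.73 TPM in the +/+ samples, 110.81 in Chd5-/- replicate 1 and 313.5 in Chd5-/- replicate 2, so that they differed between +/+ samples whose histone sums were alike, and Aldh1l1 and S100b were highest in +/+ replicate 2. The median log2 difference between Chd5-/- replicates 2 and 1 was 1.14 in the oligodendrocyte lineage list, 1.29 in the astrocyte list, 1.10 in the stem/progenitor list and 1.10 over the 3 tested genes of the neuron list. Of the neuronal markers, Rbfox3 was listed at 0 in 3 samples and Map2 made up nearly all of a sum of 371.77 to 797.02 TPM. At low levels, Syt1 was at 0.73, 0.73, 2.21 and 7.62 TPM in +/+ replicates 1 and 2 and Chd5-/- replicates 1 and 2. In that order Tubb3 was at 0.33, 0.29, 0.51 and 2.77 TPM and Stmn2 at 0.11, 0.26, 2.98 and 0.62 TPM, whereas Dcx was highest in +/+ replicate 1, at 2.37 TPM. The part of these cell types in the histone values was not tested.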

How the data were processed

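RNA-seq of 4 samples was used, 2 +/+ and 2 Chd5-/-, with groups taken from the sample labels. The authors deposited TPM values, the unit used throughout, in 1 table, and the submitters' processing notes name Bowtie2 2.2.3, RSEM 1.2.20 and mm10. The annotation is not given in the sources used here. Libraries were stranded and made from polyadenylated RNA. The unused per-sample columns numbered 0. Because RSEM divides reads among similar transcripts, values of near-identical histone genes depend on that division.

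Values of log2(TPM + 1) entered limma 3.58.1 (R 4.3.3, lmFit and trended eBayes) for each row whose mean reached 1 TPM, with genotype as the only term. Family and block sums used all member rows, with both of each identical pair. GC content, length, stem-loops and shared 50-base windows came from GENCODE release M21 of GRCm38, with GC and length found for 96.2% of rows tested. The code was tested on simulated data. Python 3.11.15 with pandas 2.3.3, numpy 2.4.6 and matplotlib 3.10.9 made the tables and figures.

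The members, lists and tests were chosen with earlier results of these data known. Named with full values were the 3 most abundant members of each family, the 5 largest rises and falls, members with an unadjusted p under 0.05, testis-specific members, the 2 genes of smallest p of each list, Slbp, Npat, Pcna, H2afx, Chd5 and cell type markers, the last given mostly as sums. A few of these are left unreported. Alternatives were other pseudocounts, minimums, scalings and eBayes settings, identical rows kept once, GC and length trends removed by loess, the replicate number as a block, sums without the most abundant member, and leaving out each sample.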

Additional observations from a re-analysis of the deposited data

How the results depend on the processing

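The 5 member rows with an unadjusted p under 0.05 by limma and higher values became 1 with a minimum of 10 TPM, 2 after quantile normalization and 2 after removal of GC and length trends, and 1 to 14 when 1 sample was left out. Lower ones were 0 to 2 when 1 sample was left out. Rows with an adjusted p under 0.05 numbered 7, and 4 with a pseudocount of 0.1, 0 with no minimum (3473 at an unadjusted p under 0.05), 1 after quantile normalization, 3 after trend removal and 0 to 1247 when 1 sample was left out (0 without either +/+ sample, with 1600 and 804 unadjusted). Non-overlapping higher members, 8 of 14, became 13 of 28 with no minimum, 2 of 3 with a minimum of 10 TPM, 5 after quantile normalization and 5 after trend removal. The share of all rows without overlap was not counted in these settings. Members highest in Chd5-/- replicate 2 were 23 of 28 with no minimum and 3 of 3 with a minimum of 10 TPM, against 37.3% and 37.4% of all rows.

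The replicate number as a block left 2 higher members, and 0 with trends removed too, and 0 rows with an adjusted p under 0.05 in both (2289 and 899 unadjusted). Nothing in the labels pairs the samples, and the deviations of same-numbered samples had a correlation of -0.15.

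With 1 sample left out, the log2 ratio of summed TPM ranged from 1.49 to 3.81 for H1 and 0.058 to 1.83 for H2A. It ranged from 0.11 to 1.23 for H2B, -1.01 to 1.35 for H3 and 2.54 to 4.08 for H4. For all members it ranged from 0.31 to 1.86. The ratio was lowest without Chd5-/- replicate 2 in every family and for all members. Without the most abundant member it was 2.10 for H2A, 2.10 for H4 and 2.14 for all.

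Log2 differences that changed sign were those of Hist2h3c2 (-0.24 with a pseudocount of 0.1, -0.17 under median-of-ratios scaling, -0.55 with quantile normalization, -0.14 with rescaling, -0.99 after trend removal), Hist2h3c1 (-0.18, -0.51, -0.080 and -0.23 under the last 4), Hist1h2bg (-0.18, -0.057, -0.43, -0.031 and -0.70 under the 5), and, after quantile normalization, Hist2h2be (-0.15) and Hist1h2be (-0.11). Without Chd5-/- replicate 2 they were -0.85 for Hist2h3c2, -0.76 for Hist2h3c1, -0.80 for Hist1h2bg, -0.087 for Hist2h2be, -0.18 for Hist1h2be and -0.094 for Hist3h2a, and without +/+ replicate 2 Hist1h2bg was at -0.13. The causes were not tested. The highest values when 1 sample was left out were 0.94 for Hist2h3c2, 1.02 for Hist2h3c1, 1.05 for Hist1h2bg, 0.93 for Hist2h2be, 1.28 for Hist1h2be and 1.51 for Hist3h2a.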
